A study of Danio rerio with 10 samples.

Results

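The cardiac calcium handling genes described here are the calsequestrin gene casq2, the caveolin gene cav3, the calcium pump genes atp2a2a and atp2a2b, and pln2. They were taken by gene symbol from the array's probe-to-gene table, as every probe set with exactly 1 symbol that was cav3, casq2 or atp2a2a or began with atp2a2b, ryr2, slc8a1, pln or trdn. This gave 6 probe sets among the 15617 of the array, 2 of them for atp2a2a, or 5 genes of the 8793 that have a probe set with 1 symbol. No probe set with a single symbol matched ryr2, slc8a1 or trdn, so these genes of the release channel, of a sodium-calcium exchanger and of triadin were not analysed here.

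Expression was measured in total RNA from zebrafish (Danio rerio) hearts on Affymetrix Zebrafish GeneChips, with 5 arrays labelled hypoxia and 5 labelled normoxia. Each group had 4 biological samples by its labels, with array 5 a technical repeat of sample 2. The sources used here do not state the oxygen level, the length of exposure, the strain, age or sex of the fish, or how many hearts made up a sample. No agent, transgene or mutant allele is named for either group. Nothing in the labels says whether the samples came from separate fish, so p-values measure the spread between these samples, which may be technical.

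In a heart muscle cell, calcium that enters through the surface membrane triggers a larger release from the sarcoplasmic reticulum, the internal store, and the cell contracts. The store is refilled by the SERCA pump, which is restrained by the small membrane protein phospholamban, and calsequestrin binds calcium inside the store close to the release channel. Caveolin-3 is the muscle form of the protein that shapes caveolae, small pits of the surface membrane, and carries no calcium itself. It therefore belongs to the membrane side of this group rather than to the calcium cycle proper. The tables used here give pln2 a symbol but no full name, so no role is stated for it.

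In hearts from hypoxic fish casq2, cav3 and the bright probe set of atp2a2a were lower than in normoxia, at 72.5%, 57.0% and 75.4% of the normoxia level. The other atp2a2a probe set and atp2a2b did not pass the test. The gene pln2 had a difference in the opposite direction, 1.26-fold higher in hypoxia, which did not pass the test either. In all, 3 of 6 probe sets were called, each of them lower in hypoxia, where 3.97% of the 10851 probe sets tested were called, 3.01% as lower and 0.958% as higher. The members were chosen with earlier results of these data known, so setting these shares side by side is not a test. The median difference of the 6 probe sets was -0.32 on the log2 scale, against -0.05 over all probe sets tested. The test was limma with an intensity trend and Benjamini-Hochberg adjusted p under 0.05 over all probe sets tested, on 3 counted samples per group. All 6 probe sets passed the filter on dim probe sets. The calls depended on the processing: from the deposited values with no scaling between arrays limma called 0 of the 6 (adjusted p = 0.0644 for casq2, 0.0880 for the bright atp2a2a probe set and 0.0903 for cav3), and with no intensity trend it called 0 as well (0.0810, 0.106 and 0.0760).

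Before the values by gene, some facts of the arrays bear on all of them. Median intensity per array was 36.2 to 51.7, and the number of arrays limits the precision. Arrays labelled hypoxia 1 and hypoxia 4, and normoxia 3 and normoxia 4, were as alike as repeat arrays of 1 RNA, with SDs of log2 differences of 0.112 and 0.0927 over 2247 bright probe sets against 0.151 for the less alike technical pair. Each such pair was averaged and counted as 1 sample, so the samples below are hypoxia 1/4, 2 and 3 and normoxia 1, 2 and 3/4. With 8 samples as labelled the same test called 1390 probe sets in place of 431. With 3 samples against 3, an exact permutation test of a single value cannot give a p below 0.1.

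Calsequestrin holds calcium in the store, and casq2, the gene of its cardiac form, varied little between samples of a group. Its level was 9.93 in hypoxia 1/4, 9.90 in hypoxia 2 and 9.84 in hypoxia 3 (log2 intensity). In normoxia it was 10.31 in sample 1, 10.36 in sample 2 and 10.38 in sample 3/4. All hypoxia samples lay below all normoxia samples, and the gap of 0.39 log2 between the nearest samples was wide against an SD of 0.04 in each group. For comparison, hypoxia and normoxia samples lay apart in this way for 27.2% of all probe sets tested, 17.3% with hypoxia lower and 9.94% with hypoxia higher. Of the 6 calcium handling probe sets 3 lay apart, all with hypoxia lower. The means were 9.89 ± 0.04 in hypoxia and 10.35 ± 0.04 in normoxia (SD, n = 3), a difference of -0.46 ± 0.06 log2 (SE, limma adjusted p = 0.0220). Repeat and near-identical arrays differed for casq2 by 0.05 to 0.10 log2. On the deposited scale, before any scaling between arrays, casq2 ran from 768 to 1031 units on the 5 hypoxia arrays and from 1266 to 1551 on the 5 normoxia arrays, so the arrays did not overlap there either.

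The call of casq2 rested on all but 1 of the counted samples. It was kept without hypoxia 2 (adjusted p = 0.0471) and lost without hypoxia 1/4 (0.0564), hypoxia 3 (0.0915), normoxia 1 (0.0587), normoxia 2 (0.0540) or normoxia 3/4 (0.0538), each a limma fit to fewer samples, while the difference stayed between -0.48 and -0.44 log2. Within the 3 hybridization runs, taken from the time of hybridization in the array records, the casq2 difference was -0.45, -0.48 and -0.45. The runs are not independent repeats, since run 3 holds RNA also in run 1 and hypoxia 1 and 4, counted as 1 sample, lie in runs 1 and 2.

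The gene atp2a2a encodes a SERCA2 pump, which returns calcium to the store after each beat. The brighter of its probe sets read 11.84 in hypoxia 1/4, 11.89 in hypoxia 2 and 11.87 in hypoxia 3 (log2 intensity). In normoxia it read 12.35 in sample 1, 12.19 in sample 2 and 12.28 in sample 3/4. The hypoxia samples were all lower and closer to each other than the normoxia samples were. The means were 11.87 ± 0.02 and 12.27 ± 0.08 (SD, n = 3), a difference of -0.41 ± 0.05 log2 (SE, limma adjusted p = 0.0217). On the deposited scale the arrays lay only just apart, at 3321 to 4026 units in hypoxia and 4114 to 5621 in normoxia. By hybridization run the difference was -0.44, -0.43 and -0.22. The smallest of these, in run 3, compares 1 array with 1, and its normoxia array was 0.13 log2 below the array of the same RNA in run 1.

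The other atp2a2a probe set was dim, at 32.4 to 57.9 normalized units over the 10 arrays against a background bound of 27.0 units. It read 5.18, 5.34 and 5.44 in hypoxia 1/4, 2 and 3 and 5.26, 5.80 and 5.61 in normoxia 1, 2 and 3/4 (log2 intensity). Normoxia 1 lay among the hypoxia samples, so the groups overlapped. The difference was -0.24 ± 0.19 log2 (SE, n = 3, limma adjusted p = 0.522), of the same sign as that of the bright probe set and with an error nearly as large as itself. The response of both probe sets could not be told apart, since the difference between them within a sample changed by 0.17 log2 from normoxia to hypoxia with overlapping groups (exact permutation p = 0.6, two-sided, n = 3).

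The bright atp2a2a probe set kept its call without hypoxia 2 (adjusted p = 0.0403) or normoxia 2 (0.0459). It lost it without hypoxia 1/4 (0.0599), hypoxia 3 (0.0901), normoxia 1 (0.0530) or normoxia 3/4 (0.0522) in limma fits to fewer samples, with differences of -0.45 to -0.37 log2 over all 6 such fits. The dim probe set was called in none of the 23 alternative settings and was below 0 in all of them.

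The paralog atp2a2b encodes another pump of the same type. Its probe set read 7.54, 7.25 and 7.70 in hypoxia 1/4, 2 and 3, and 7.23, 7.34 and 8.00 in normoxia 1, 2 and 3/4 (log2 intensity). Normoxia 3/4 was the highest sample and normoxia 1 the lowest, so the hypoxia samples lay inside the normoxia range. The difference was -0.03 ± 0.23 log2 (SE, n = 3, limma adjusted p = 0.959). It was 0.14 in run 1, -0.43 in run 2 and -0.06 in run 3, and without normoxia 3/4 it was 0.21 and without hypoxia 2 it was 0.10. No direction can be given for atp2a2b. Repeat and near-identical arrays differed for it by 0.03 to 0.21 log2, so most of the spread between normoxia samples was larger than the spread between such arrays.

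Caveolin-3 is found in heart and skeletal muscle membranes. The probe set of cav3 read 5.77 in hypoxia 1/4, 6.23 in hypoxia 2 and 5.98 in hypoxia 3 (log2 intensity). In normoxia it read 6.66 in sample 1, 6.84 in sample 2 and 6.91 in sample 3/4. The groups did not overlap, with a gap of 0.43 log2 between hypoxia 2 and normoxia 1. The means were 5.99 ± 0.23 and 6.80 ± 0.13 (SD, n = 3), and the difference of -0.81 ± 0.16 log2 (SE, limma adjusted p = 0.0430) was the largest in size among the 6 probe sets.

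The signal of cav3 was weak, and its call was the least firm of those made. On single arrays it was 49.7 to 79.1 normalized units in hypoxia and 100.2 to 132.9 in normoxia, above the background bound of 27.0 on all 10. On the deposited scale the arrays overlapped, at 57.5 to 90.5 units in hypoxia and 88.2 to 125.0 in normoxia. Arrays counted as 1 sample differed for cav3 by 0.03 to 0.31 log2. The difference was -0.73, -1.09 and -0.53 in runs 1, 2 and 3. Without hypoxia 2 it was called (limma adjusted p = 0.0498), and it was not without hypoxia 1/4 (0.0994), hypoxia 3 (0.132), normoxia 1 (0.0976), normoxia 2 (0.136) or normoxia 3/4 (0.105). Over all 6 such fits it was -0.93 to -0.70 log2. It also lost the call with cyclic loess (-0.72, adjusted p = 0.0596) and when every value below the background bound was raised to it (-0.81, adjusted p = 0.0678).

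Only pln2, whose symbol shares its root with phospholamban, had a difference above 0. Its probe set read 8.95, 8.82 and 8.76 in hypoxia 1/4, 2 and 3 and 8.29, 8.47 and 8.76 in normoxia 1, 2 and 3/4 (log2 intensity). Hypoxia 3 and normoxia 3/4 were level to within 0.01 log2, so the groups overlapped, though barely. The difference was 0.34 ± 0.13 log2 (SE, n = 3, unadjusted p = 0.0411, limma adjusted p = 0.217). It was 0.49, 0.09 and 0.40 in runs 1, 2 and 3. Under the 23 alternative settings pln2 was never called, and its difference was above 0 in all of them, from 0.09 to 0.49 log2. The lowest values came from run 2 alone and from median scaling of the arrays (0.10), so the size depended on the samples used and on the scaling. With 1 counted sample left out, the difference ran from 0.23 (without normoxia 1) to 0.47 log2 (without normoxia 3/4).

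**Figure D1:**
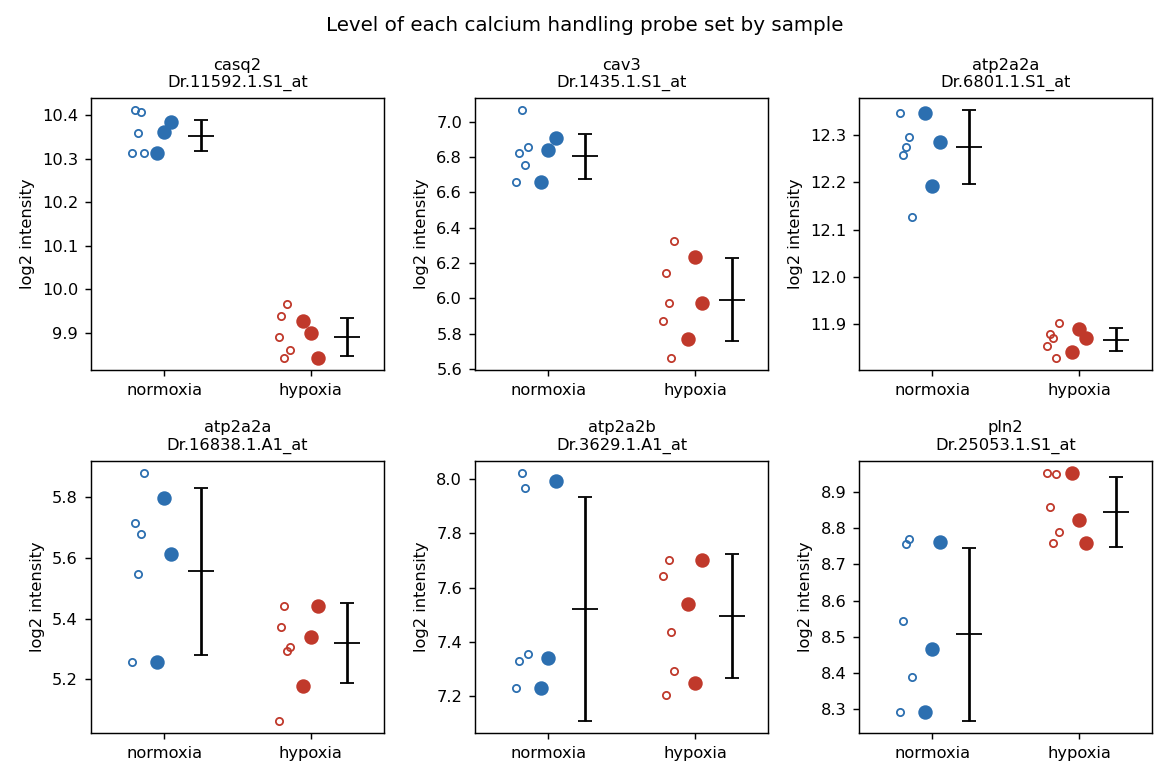
Log2 intensity of the 6 calcium handling probe sets, 1 panel each with its own axis range, in normoxia (blue) and hypoxia (red). The bright atp2a2a probe set is the panel at the upper right and the dim one at the lower left. Open circles are single arrays, filled circles the 3 counted samples per group, and bars the mean with its SD (n = 3). For casq2, cav3 and the bright atp2a2a probe set all red points lie below all blue points, and for the other 3 probe sets the samples overlap.

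**Figure D2:**
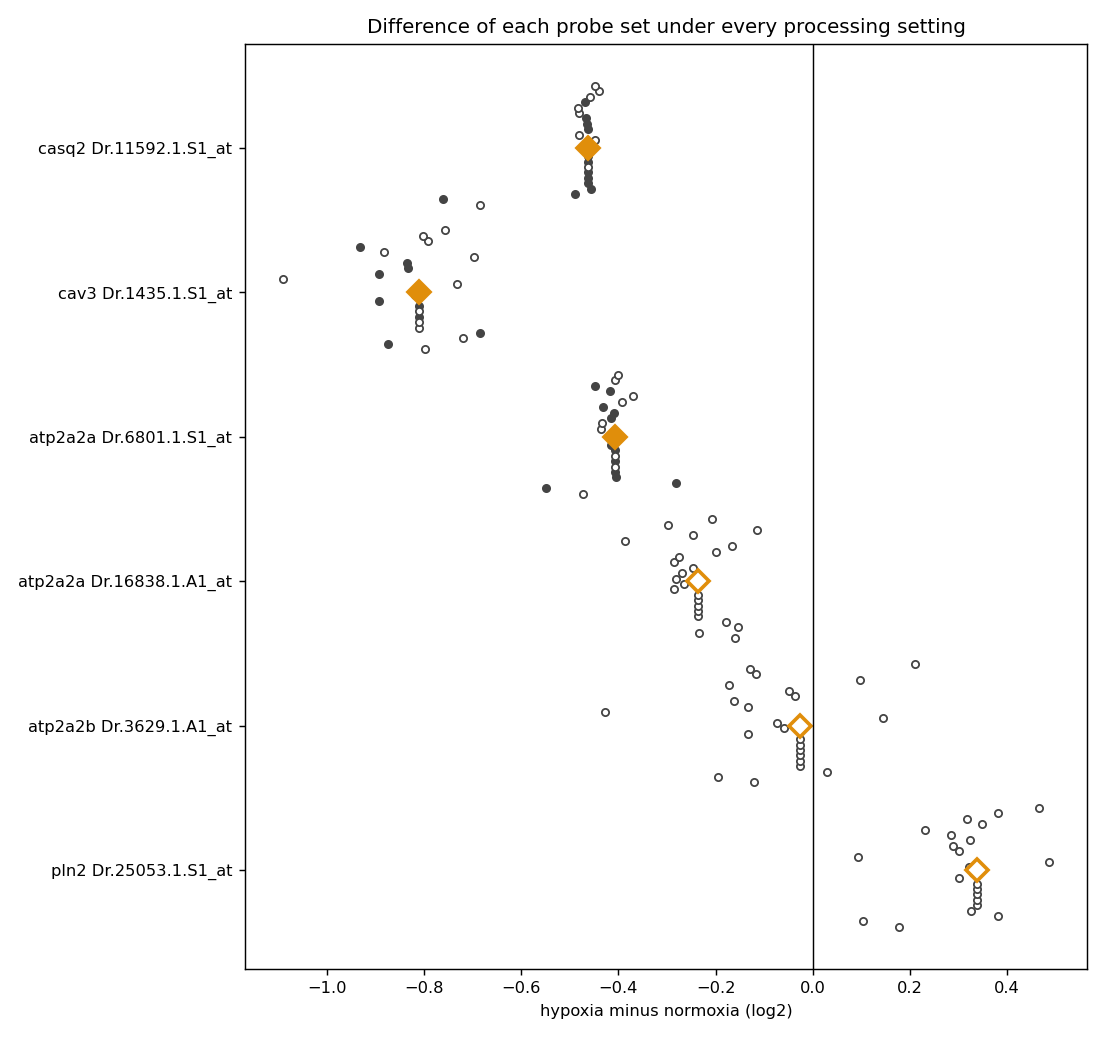
Hypoxia minus normoxia (log2) of each of the 6 probe sets under the reported setting (orange diamond) and 23 alternatives (circles). The upper of the atp2a2a lines is the bright probe set. Filled symbols have a limma adjusted p under 0.05. The points of casq2, cav3 and both atp2a2a probe sets stay left of 0 and those of pln2 right of it, while those of atp2a2b lie on both sides.

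Ratios between probe sets within a sample were compared for all 15 pairs of the 6 probe sets, from normalized values unless the deposited values are named. A ratio does not depend on a factor applied to a whole array. Quantile normalization is not such a factor and can change a ratio. Of the 15 pairs, 6 had groups that did not overlap, 4 of them pairs with pln2. From the deposited values 7 of the 15 did not overlap. The pairs share the same 6 probe sets, so they are not independent, and the share over pairs of other probe sets was not computed. The level of casq2 over pln2 was 1.04 ± 0.06 log2 in hypoxia and 1.85 ± 0.20 in normoxia (SD, n = 3), a difference of -0.80 log2. The bright atp2a2a probe set over pln2 was lower in hypoxia by a difference of -0.74 log2, from 3.77 ± 0.27 to 3.02 ± 0.12 (SD, n = 3). For cav3 over pln2 the difference was -1.15 log2. In each of these 3 pairs the groups did not overlap, and the exact permutation p was 0.1, the smallest that 3 samples against 3 allow, and 0.25 after adjustment over the 15 pairs. From the deposited values with no scaling between arrays the same differences were -0.86, -0.65 and -0.99, again with no overlap. The dim atp2a2a probe set over pln2 differed by -0.57 log2 without overlap (exact permutation p = 0.1), and by -0.34 with overlap from the deposited values. For atp2a2b over pln2 the difference was -0.36 log2 with overlapping groups (exact permutation p = 0.3). The ratio of atp2a2b to cav3 differed by 0.78 log2, also with overlap (exact permutation p = 0.2). A level of 1 probe set cannot be set against that of another, so only the change in these ratios is a measurement.

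The ratios among the other members are given next. The ratio of the bright atp2a2a probe set to casq2 was 1.98 ± 0.06 log2 in hypoxia and 1.92 ± 0.10 in normoxia (SD, n = 3), a difference of 0.06 with overlapping groups (exact permutation p = 0.5), though 0.21 without overlap from the deposited values. The ratio of casq2 to cav3 was 0.35 log2 higher in hypoxia without overlap (exact permutation p = 0.1, 0.25 adjusted over the 15 pairs), but 0.12 with overlap from the deposited values. The ratio of the bright atp2a2a probe set to cav3 differed by 0.40 log2 with overlap (exact permutation p = 0.2), and by 0.34 without overlap from the deposited values. The ratio of the dim atp2a2a probe set to cav3 was 0.57 log2 higher in hypoxia without overlap (exact permutation p = 0.1, 0.25 adjusted over the 15 pairs), and 0.64 from the deposited values, also without overlap. Dim atp2a2a over casq2 differed by 0.23 log2 with overlap (exact permutation p = 0.2), and by 0.52 without overlap from the deposited values. Dim atp2a2a over atp2a2b differed by -0.21 log2 (exact permutation p = 0.7) and atp2a2b over casq2 by 0.44 (exact permutation p = 0.2). Both had overlapping groups on either scale. The ratio of the bright atp2a2a probe set to atp2a2b differed by -0.38 log2 with overlapping groups (exact permutation p = 0.3), so a different response of these paralogs was not shown.

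**Figure D3:**
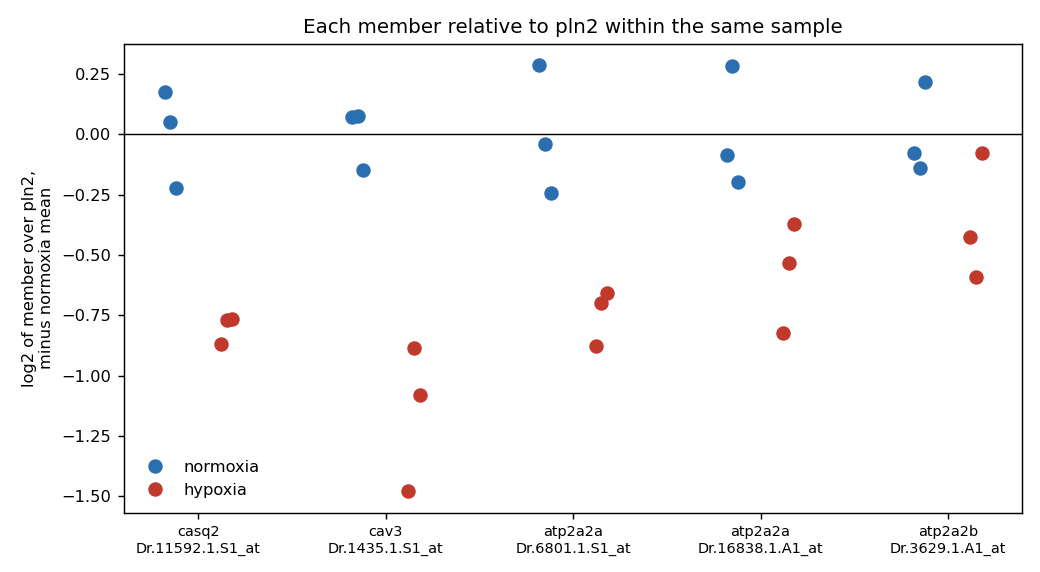
Log2 ratio of each of the other 5 probe sets to pln2 within a sample, as the distance from its normoxia mean, with 3 normoxia (blue) and 3 hypoxia (red) samples each. The left one of the atp2a2a columns is the bright probe set. The pairs with pln2 were chosen for plotting after their values were seen. Red points lie below all blue points for casq2, cav3 and both atp2a2a probe sets, the dim one overlapping when the deposited values are used, and reach the blue points for atp2a2b.

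The hearts were checked against muscle and other cell markers. The cardiomyocyte genes myl7, actc1a, cmlc1 and tnnt2a had levels of 12.4 to 12.9 log2 in hypoxia, while tbx5a and gata4 were under the background bound on all 10 arrays. Of 9 cardiomyocyte markers tested, 2 were called lower in hypoxia (myh7 at -0.89 and ttn.2 at -0.56 log2) and 0 higher. Over all probe sets tested, 3.01% were called lower and 0.958% higher. Hypoxia lay below normoxia without overlap for 5 of the 9, against 17.3% of all. All 9 differences were below 0, and their median was -0.09. Of all probe sets tested, 53.4% lay below -0.03 log2, so counts below 0 here and in later lists are to be read beside that. Another probe set of ttn.2, not used for the list, gave -1.10 log2 and was also called (limma adjusted p = 0.0131). The summed intensity of that list was 35267 to 37309 units in hypoxia and 39076 to 40867 in normoxia. The mean log2 level of these 9 markers was itself lower in hypoxia, by -0.25 log2 without overlap (exact permutation p = 0.1, the smallest possible). Against that mean in the same sample, casq2 differed by -0.21, the bright atp2a2a probe set by -0.16 and cav3 by -0.56 log2. Each of these was without overlap (exact permutation p = 0.1). For pln2 the value was 0.59 in the other direction, also without overlap. The dim atp2a2a probe set differed by 0.01 and atp2a2b by 0.22 log2 against that mean, both with overlapping groups. Those 2 had differences of -0.24 and -0.03 log2 without the subtraction. Before the marker mean was subtracted, the differences were -0.46 for casq2, -0.41 for the bright atp2a2a probe set, -0.81 for cav3 and 0.34 for pln2. The fall of the marker mean thus made the differences of casq2, cav3 and the bright atp2a2a probe set smaller in size and that of pln2 larger. In bulk RNA, fewer cells of a type and less RNA per cell cannot be told apart.

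Skeletal muscle markers are given because that muscle also uses cav3. Of 19 tested, 17 lay below 0 with a median of -0.81 log2, but 0 were called by limma in either direction and 6 had an unadjusted p under 0.05. Of all 10851 probe sets tested, 2298 had an unadjusted p under 0.05 in limma, the share to set beside such counts here and below. Their summed intensity was 12729 to 17764 units in hypoxia and 14213 to 30599 in normoxia, and only the myogenic factor gene myf5 was under the background bound on all arrays. Sample by sample the sum was 14213, 22709 and 30599 units in normoxia 1, 2 and 3/4, and 17764, 12729 and 14468 in hypoxia 1/4, 2 and 3. The groups overlapped in this sum. Of the genes tested only ckma and actc1b had groups that did not overlap, both with hypoxia lower. Their mean levels were also the highest of the list, at 11.97 and 12.04 log2 in hypoxia and 12.18 and 12.40 in normoxia. They therefore weigh heavily in the sum. The part of skeletal muscle RNA in the cav3 difference was not tested.

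All red blood cell and liver markers tested had differences above 0, though not all were called. Of 11 red blood cell markers 7 were called higher, against 0.958% of all probe sets tested, and 9 had an unadjusted p under 0.05 in limma. Their median was 0.72 log2, with a summed intensity of 24323 to 29368 units in hypoxia against 18946 to 20194 in normoxia. Of 15 liver markers 3 were called higher, against the same 0.958%, and 14 had an unadjusted p under 0.05 in limma. Their median was 2.36 log2, and the sum was 15423 to 31167 units against 1360 to 9604. All hypoxia samples lay above all normoxia samples for 9 of the 11 and 13 of the 15, against 9.94% of all probe sets tested. No marker of either list was under the background bound on all arrays. Of the markers tested for smooth muscle and outflow tract (4, median 0.11), endothelium (4, median 0.11), epicardium and fibroblast (5, median -0.17) and leukocytes (10, median -0.24), 0 were called by limma, and 1, 0, 1 and 1 had an unadjusted p under 0.05. The part of these cells in the differences of the calcium handling genes was not tested.

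The wider calcium machinery showed few calls. Over 5 lists of calcium and muscle membrane genes, written with earlier results of these data known, 65 genes were tested with 1 probe set each, and 1 was called higher and 1 lower. That is 3.08% called, near the 3.97% of all probe sets. Groups did not overlap for 27 of the 65, a larger share than the 2954 of 10851 (27.2%) over all probe sets tested. As the lists were written with earlier results known, this is not a test. Hypoxia lay lower for 3 of 16 store and release genes and 3 of 6 entry and extrusion genes. It lay lower for 6 of 23 sensing, 6 of 9 mitochondrial and 2 of 11 caveolae and membrane genes, against 17.3% of all. In that order it lay higher for 2, 1, 4, 0 and 0, against 9.94%. The median difference of the 65 genes was -0.13 log2. Under median scaling of the arrays 8 were called, all 8 lower. In that setting 7.27% of all 10851 probe sets tested were called, and 90.5% of those calls were lower.

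Both calls were in calcium sensing, where 23 genes were tested. The calmodulin gene calm3b, a calcium sensor that many kinases and channels read, read 9.95 ± 0.09 in hypoxia and 9.54 ± 0.07 in normoxia (SD, n = 3), and rose by 0.41 ± 0.08 log2 (SE, limma adjusted p = 0.0413). Under median scaling its difference shrank to 0.14 and was not called (adjusted p = 0.378). The gene rcan3, of the family that regulates the calcium-dependent phosphatase calcineurin, fell by 0.59 log2, from 8.23 ± 0.16 to 7.64 ± 0.04 (SD, n = 3, limma adjusted p = 0.0400). Neither call was kept in limma without any 1 of the counted samples, with adjusted p of 0.0552 to 0.141 for calm3b and 0.0522 to 0.131 for rcan3. The gene prkar2aa, a regulatory subunit of protein kinase A, had 3 probe sets above 0. Its brightest gave 0.53 (limma adjusted p = 0.0561), another 0.63 and was called (0.0458), and the third 0.49 (0.108). The called one lost its call without any 1 counted sample (0.0813 to 0.140).

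In the store and release list, 16 genes were tested and 0 were called by limma, with 6 at an unadjusted p under 0.05. Over all probe sets tested, that held for 2298 of 10851. The largest differences were those of atp2a1 at -1.78 (adjusted p = 0.236) and atp2a1l at -1.52 log2 (adjusted p = 0.157), pump genes related to atp2a2a and used by fast skeletal muscle. These genes are also on the skeletal muscle list above, so the same values enter both lists. Both had overlapping groups and wide normoxia spreads, with SDs of 1.38 and 1.09 log2. The sarcalumenin gene srl, which encodes another calcium-binding protein of the store, read 9.03 ± 0.21 in hypoxia and 9.69 ± 0.29 in normoxia (SD, n = 3), without overlap but not called (limma adjusted p = 0.0908). This gene and those that follow in the list were picked after their values were seen. The genes tmem38a and tmem38b, which encode potassium channels of the store membrane, had differences of opposite sign, -0.29 and 0.63 log2, and neither was called (limma adjusted p = 0.146 and 0.156). The gene fkbp1b, whose product binds the release channel, had a difference of 0.16 (adjusted p = 0.527).

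Calcium entry and extrusion genes were mostly dim. Of 6 tested 0 were called by limma, 3 had an unadjusted p under 0.05, 5 lay below 0 and the median was -0.51 log2. The largest differences were those of the surface membrane pump genes atp2b2 at -1.69 (adjusted p = 0.105) and atp2b4 at -1.35 (adjusted p = 0.191). Signal of atp2b2 was below the bound on all 5 hypoxia arrays and on 3 of the 5 normoxia arrays, so the size is not measured. Another probe set of atp2b4, below the bound on 9 of 10 arrays, gave 0.13 (limma adjusted p = 0.804). A further atp2b4 probe set, which did not pass the filter, gave 1.34 log2 without overlap. It was below the bound on all 10 arrays, so that size is not measured either. The sodium-calcium exchanger gene slc8a4b, picked after its value was seen, had -0.13 log2 (limma adjusted p = 0.722). The L-type channel gene cacna1c did not pass the filter.

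Mitochondrial calcium genes had 8 of 9 differences below 0, a median of -0.16 log2, and 0 calls in limma with 3 at an unadjusted p under 0.05. The largest were mcur1, a regulator of the uniporter, at -0.45 (adjusted p = 0.0844) and letm1, of the inner membrane, at -0.31 log2 (adjusted p = 0.244). Among caveolae and membrane genes 0 of 11 were called by limma, 1 had an unadjusted p under 0.05, 9 lay below 0 and the median was -0.14 log2. The caveolae coat gene cavin2a had -1.15 (adjusted p = 0.0937), with 2 of 5 hypoxia arrays below the bound, and the sarcoglycan gene sgcd had -0.64 log2 (adjusted p = 0.474) with 4 hypoxia and 3 normoxia arrays below it. The paralogs of cav3 gave values near 0. The caveolin gene cav1 had 0.07 (adjusted p = 0.552, with 0.06, -0.09 and 0.20 at its other probe sets), and cav2 had 0.06 log2 (adjusted p = 0.718), both from limma.

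**Figure D4:**
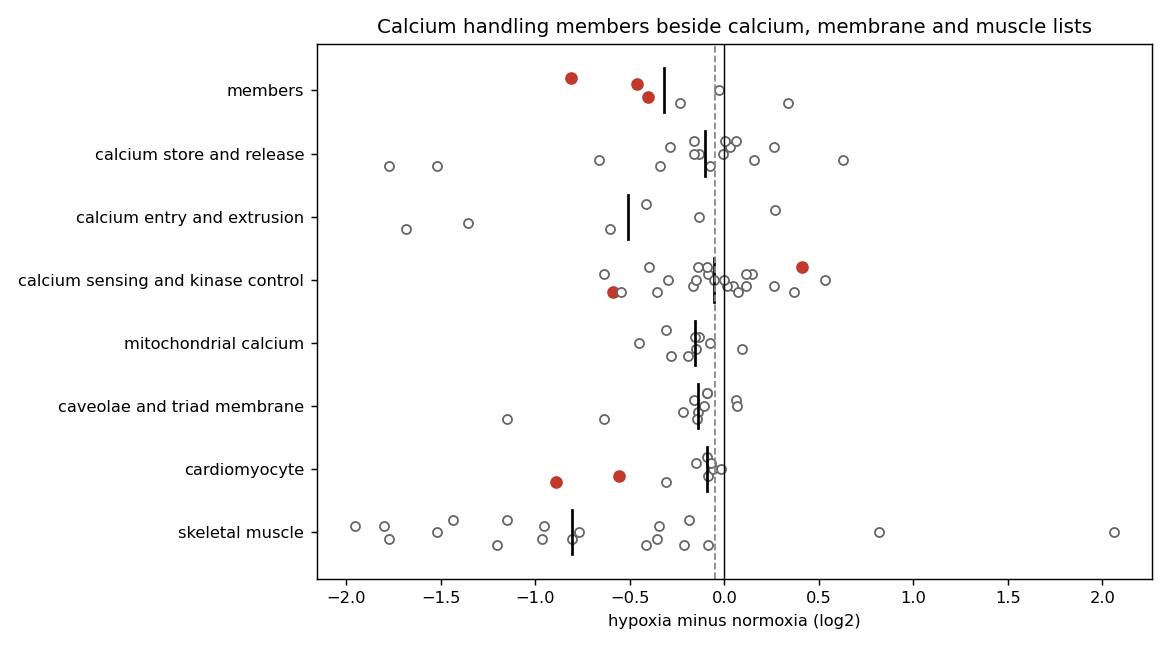
Hypoxia minus normoxia (log2) for the 6 calcium handling probe sets (members), 5 calcium and membrane lists and 2 muscle marker lists, 1 point per probe set or gene. Red points have a limma adjusted p under 0.05, black bars are list medians, and the dashed line is the median of all probe sets tested (-0.05). The members hold 3 red points, all left of 0, and the skeletal muscle list spreads widest. Genes atp2a1 and atp2a1l appear in the store and release list and again in the skeletal muscle list. Likewise tnnt2a and tnnc1a appear in both the calcium sensing and the cardiomyocyte list.

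The probe sets most like each member were sought by the root mean square difference of mean-centred log2 levels over the 6 counted samples. That distance spans both groups, so a neighbour has a group difference close to that of its member by selection. The differences and calls of neighbours are therefore a description and not a separate result. For casq2 these were arhgef4 (0.0206 log2), snx2 (0.0290) and ndufa6 (0.0305). Their own differences between the groups were -0.48, -0.42 and -0.52 log2. For the bright atp2a2a probe set they were cox5aa (0.0240), mdh1aa (0.0291) and pmpca (0.0308), with differences of -0.37, -0.37 and -0.44. For cav3, macrod1 (0.0790), ogdha (0.0999) and mipepb (0.102) came closest, with -0.74, -0.68 and -0.73. Among these neighbours snx2, pmpca and macrod1 were not called (limma adjusted p = 0.0962, 0.0792 and 0.0655), and the rest were.

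For the dim atp2a2a probe set the nearest were snx12 (0.0624), krt15 (0.0679) and wnt11 (0.0798), for atp2a2b tbx15 (0.0417), otud7b (0.0951) and kdelr2a (0.0957), and for pln2 aars1 (0.0639), stk35l (0.0762) and ccl34b.1 (0.0778). None of these 9 was called by limma (adjusted p = 0.239 to 0.906).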

How the data were processed

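Each of the 10 arrays gave 1 intensity per probe set in the deposited table, on a linear scale with 7.86 to 10.1% of values at or below 0. The software that made it is not given in the sources used here, and array medians differed. The deposited array records held another unit, text on chip type and fluidics, from which the time of hybridization gave 3 runs. The wash records of array 5 of each group end in an abort.

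Quantile normalization was applied to the linear intensities, followed by an offset of 1, a floor of 1 and log2. The 115 control probe sets and the lowest 30% of mean log2 intensity were left out, which kept 10851. The background bound of 27.0 units is 2 times the background SD estimated from negative values. Hypoxia array 5, whose description also gives number 4, was taken as a repeat of hypoxia 2. Arrays of 1 RNA, and arrays of a group as alike as repeats, were averaged. The groups were tested with limma 3.58.1 in R 4.3.3 (lmFit, eBayes with trend, two-sided, Benjamini-Hochberg). Differences are hypoxia minus normoxia with the moderated SE. Exact permutation tests used SciPy 1.17.1, two-sided. Python 3.11.15, pandas 2.3.3 and matplotlib 3.10.9 were used for lists and figures.

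Symbols come from the array's annotation table, where 10795 probe sets had 1 symbol, 135 several and 4572 none, controls aside. A list gene was represented by its probe set of highest mean. All member probe sets are named, as are list genes with a called probe set, otherwise the 2 largest differences of a list, and the 3 nearest profiles of each member. Further list genes named for their role are said to be so or are paralogs. Members, lists and tests were chosen with earlier results of these data known. Alternatives covered scaling, offset, filter, variance model, counted samples, run, pairing and left-out samples. Same-numbered samples did not deviate together in every pair (r = -0.10 to 0.18, against -0.15 to 0.15 for other numbers), and the numbers were not used as pairs. That check used the 8 samples as labelled, where arrays counted here as 1 sample carry different numbers. It therefore does not settle whether the numbers mark pairs.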

Additional observations from a re-analysis of the deposited data

How the results depend on the processing

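Over 23 alternatives, casq2, cav3, both atp2a2a probe sets and pln2 kept their direction. The call was kept in 14 for casq2, 14 for the bright atp2a2a probe set and 11 for cav3. Of the 6 probe sets 3 were called in 11 alternatives, 2 in 2, 1 in 2 and 0 in 8. The count was 0 for the deposited values and with no intensity trend, 1 with no filter on dim probe sets, 0 in run 1 alone and in run 2 alone, and 0 to 3 when 1 counted sample was left out. Over all probe sets the count was 431. It was 102 for the deposited values, 789 with median scaling, 171 with no filter, 2 with no intensity trend, 1390 with 8 samples as labelled, 1531 with hypoxia array 5 counted with array 4, 1013 when all 10 arrays entered with the counted sample as random block, 870 with the run added, 1 to 204 with 1 counted sample left out, and 0 in run 1 and run 2 alone in limma, where 1656 and 1348 had an unadjusted p under 0.05. Lower calls made up 75.9% of the 431, 58.8% for the deposited values, 62.3% with cyclic loess and 90.5% with median scaling. This share was 46.4% of 28 without normoxia 1, 51.0% of 204 without hypoxia 2, and 0 of 1 without hypoxia 3. Median scaling moved the median difference over all probe sets from -0.05 to -0.14 log2. With the replicate number as a block, on 8 samples as labelled, 1062 probe sets, 3 of the 6 members and 7 list genes were called, against 1390, 3 and 13 without the block. Of the 65 list genes 2 were called, and this was 0 for the deposited values, with no filter, with no intensity trend and in run 1 or run 2 alone, 8 with median scaling, 13 with 8 samples as labelled, 17 with array 5 counted with array 4, 8 with 10 arrays and the sample as a block, 6 with the run added, and 0 to 1 with 1 sample left out. The atp2a2b difference turned above 0 with cyclic loess (0.029), in run 1 alone (0.14), without hypoxia 2 (0.10) and without normoxia 3/4 (0.21), and ran from -0.17 to 0.21 over the fits with 1 sample left out. Apart from fits to fewer samples, the cause was not tested. Signal over background limits cav3 and the dim atp2a2a probe set.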
